A study of Mus musculus with 8 samples.

Results

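The genes described here encode the proteins of the cytosolic ribosome, measured in tumor cells sorted from mouse breast cancer brain metastases (BCBM). A gene was taken as a member when its annotation was protein_coding and its symbol was Rpl or Rps followed by a number, or was Rplp0, Rplp1, Rplp2 or Rpsa. Pseudogene symbols ending in -ps and a number and the Rps6k kinases were left out. The rule found 87 of the 31894 genes with an identifier in the count table. They comprise 31 small subunit genes, 43 large subunit genes, the 3 stalk genes, 9 paralogues and Rps19bp1, which encodes a protein that binds a ribosomal protein and is not one itself.

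The cytosolic ribosome translates nuclear-encoded mRNA, and its small subunit reads the mRNA while its large subunit joins the amino acids. A ribosome holds nearly all of its core proteins in equal numbers, and their mRNAs are abundant in most growing cells. Many of these mRNAs begin with a run of pyrimidines, the TOP motif, through which mTORC1 signaling controls their translation.

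E-cadHI and E-cadLO tumor cells were separated by FACS on the fluorescence of E-cadherin fused to mCFP, and mRNA was sequenced from 4 libraries of each population. The labels number the mice 57, 58, 67 and 70, and both populations of every mouse were sequenced. All groups share the strain FVB, the label wild type for genotype and the tissue, a brain metastasis of breast cancer; no age or treatment is given in the labels. The cells descend from tumors of PyMT E-cad-mCFP mice grown as organoids and injected into the brain, so they represent a single tumor model. The study imaged E-cad-mCFP in sorted cells of both populations, while its purity check by FACS used E-cadHI cells alone. The total was 14922074, 13006189, 13437544 and 11876177 counts in the E-cadHI libraries of mice 57, 58, 67 and 70, and 11325146, 9102781, 14313787 and 15769200 in their E-cadLO libraries. Values are given below in that order of mice. Levels are CPM (counts scaled to a common library size) after TMM scaling, which corrects for differences in library composition.

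The sort by E-cadherin was not matched by Cdh1 mRNA in every mouse. Cdh1, which encodes E-cadherin, was at 114, 132, 93.5 and 108 CPM in E-cadHI and at 71.6, 181, 84.5 and 59.2 CPM in E-cadLO. In mouse 58 the E-cadLO library was the higher of its pair. The 12 tumor epithelial markers, all tested and led by Krt18, summed to 10519, 7783, 10403 and 9269.8 CPM in E-cadHI and to 5863, 9682, 14745 and 8254 CPM in E-cadLO. None of the 12 was at 0 in all libraries, and epithelial markers were abundant in both populations.

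The E-cadLO libraries of mice 57 and 58 and both libraries of mouse 70 stood apart from the others. In mouse 57, the 12 fibroblast and mural markers, of which 9 were tested and Col1a1 was the most abundant, summed to 1667 CPM in E-cadLO, against 24, 74.6 and 185 CPM in the E-cadLO libraries of the other mice and 8.71, 15.8, 9.59 and 66.2 CPM in E-cadHI. Gm42418, a transcript that overlaps ribosomal RNA sequence, took 14.4% of the counts of the E-cadLO library of mouse 58 and between 2.23% and 7.67% of the others. In mouse 70, the 12 oligodendrocyte markers, all tested and led by Mbp, summed to 34699 CPM in E-cadLO and 8662 CPM in E-cadHI. The other E-cadLO libraries held 1334, 3836 and 4337 CPM of these markers, and the other E-cadHI libraries 555, 1654 and 967 CPM. The 18 microglia and macrophage markers, all tested, summed to 39.2, 100.3, 139 and 323 CPM in E-cadHI and to 281, 268, 941 and 1169 CPM in E-cadLO. They were higher in E-cadLO in each mouse. The 12 astrocyte markers, all tested and led by Aldoc, summed to 1204, 1242, 1376 and 3775 CPM in E-cadHI and to 771, 1622, 2081 and 10411 CPM in E-cadLO. In mouse 57 the lower sum in E-cadLO came from Aldoc, at 1005 CPM in E-cadHI and 124 CPM in E-cadLO, while the median log2 ratio of the 12 markers in that mouse was 0.81. None of these cell type lists had a marker at 0 in all libraries, and their part in the ribosomal protein values was not tested.

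The first question was how much of each library the ribosomal protein genes took. In E-cadHI the 87 genes took 2.28%, 2.07%, 2.26% and 2.32% of the counts, and in E-cadLO 1.39%, 2.17%, 1.92% and 1.85%. The E-cadHI shares lay close together (mean 2.23% ± 0.111, SD, n = 4), while the E-cadLO shares were spread more widely (1.83% ± 0.327, SD, n = 4). The lowest share was that of the E-cadLO library of mouse 57 (95% Wilson interval 1.381% to 1.395%), and the groups overlapped through the E-cadLO library of mouse 58 (2.163% to 2.182%). These intervals cover counting error only. E-cadLO minus E-cadHI was -0.892, 0.1, -0.348 and -0.471 percentage points in mice 57, 58, 67 and 70, a mean of -0.402 ± 0.408 (SD, n = 4), so the mean difference was smaller than its spread between mice. Without mouse 57 the mean difference was -0.239, without mouse 58 it was -0.570 and without mouse 70 it was -0.380 percentage points. In bulk samples, fewer cells of a type and less RNA per cell cannot be told apart. The share of the mitochondrial genome was 1.75%, 4.07%, 1.84% and 4.7% in E-cadHI and 1.88%, 5.32%, 4.61% and 7.16% in E-cadLO. The mean difference in the ribosomal protein share was -0.361 percentage points with Gm42418 left out of the totals and -0.328 with Gm42418 and the mitochondrial genome left out. Malat1, a nuclear RNA, was at 1211, 2049, 1734 and 1609.9 CPM in E-cadHI and at 2473, 2688, 4959 and 2084 CPM in E-cadLO, higher in E-cadLO in each mouse. The E-cadHI library of mouse 58 had 25216 genes detected, against 17081 to 21179 in the others, and Lars2 was at 1207, 12006, 1222 and 8429 CPM in E-cadHI and at 427, 3506, 1604 and 1387 CPM in E-cadLO. The part of Malat1, Lars2 and the number of genes detected in the ribosomal protein share was not tested.

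**Figure D1:**
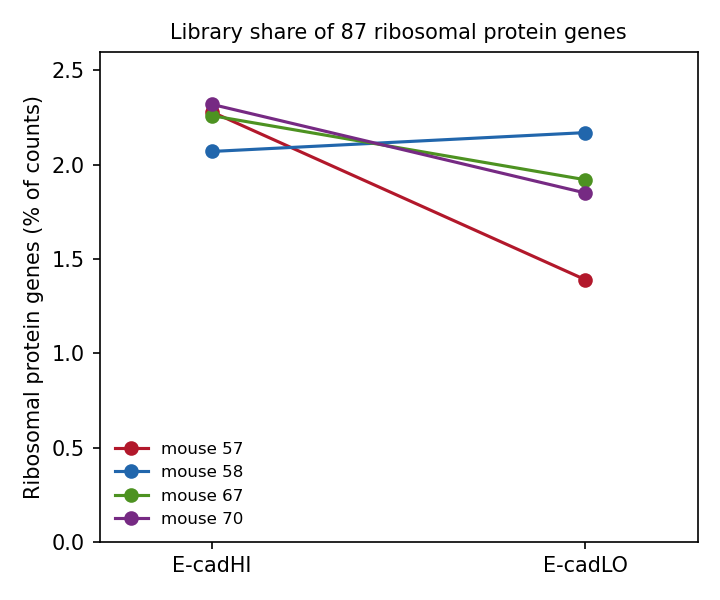
Share of each library's counts taken by the 87 ribosomal protein genes, in percent, with 1 point per library and a line joining the E-cadHI and E-cadLO libraries of a mouse. The line of mouse 57 drops from 2.28% to 1.39%, and that of mouse 58 goes from 2.07% to 2.17%.

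Within each mouse the ribosomal protein genes had similar ratios, and the direction differed between mice. The median log2 ratio of E-cadLO to E-cadHI over the 83 members tested was -1.0, 0.20, -0.31 and -0.20 for mice 57, 58, 67 and 70. The medians over all 13598 tested genes were 0.02, 0.00, 0.02 and 0.07. The members lay closer to each other than genes in general, with interquartile ranges of 0.26, 0.28, 0.18 and 0.20, against 1.36, 0.58, 0.91 and 0.74 over all tested genes. The members and all tested genes were not matched for level. Most members were abundant, while the tested genes include genes with few counts, whose ratios vary more through counting error. The narrower spread can therefore not be read as particular to the ribosomal protein genes. Members with a ratio below 0 numbered 82, 18, 78 and 76 of 83. Of all tested genes, 48.3%, 49.9%, 49.0% and 44.7% had a ratio below 0 in these mice. A total of 58 of the 83 members (69.9%) were lower in E-cadLO in mice 57, 67 and 70 and higher in mouse 58, beside 7.49% of all tested genes; this pattern was chosen after the values were seen. Each within-mouse ratio compares 1 library with 1 library and was not tested.

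**Figure D2:**
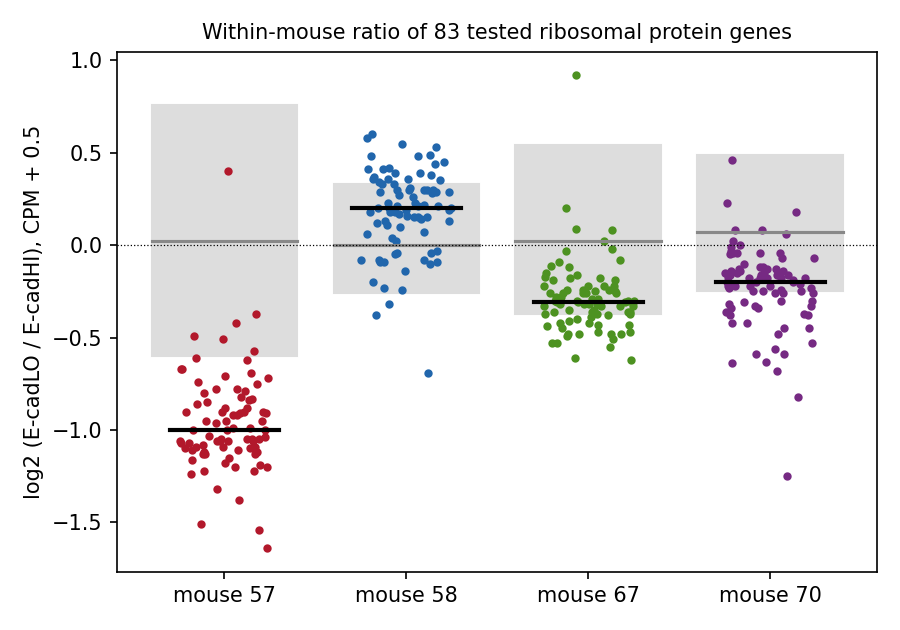
Log2 ratio of E-cadLO to E-cadHI (CPM plus 0.5) in each mouse for the 83 tested ribosomal protein genes, with 1 point per gene, a black line at their median and a grey line and box at the median and interquartile range of all 13598 tested genes. The black line lies at -1.0 in mouse 57 and at 0.20 in mouse 58.

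The second question was which members differed between the populations across the mice. In the edgeR test over all genes, 0 of 83 members were lower and 0 higher at an adjusted p under 0.05, and so were 0 (0%) and 0 (0%) of the 13598 genes tested. At an unadjusted p under 0.05, 3 members were lower, Rpl7 and Rpl12 among them, 3.61% of those tested beside 5.81% of all genes, and 0 were higher beside 8.16%. Rpl12, named here for its value alone, falls outside the rule for named genes. DESeq2 called 0 members, beside 0.449% of all genes lower and 2.19% higher. At an unadjusted p under 0.05, DESeq2 had 7 members lower (8.43%), beside 6.32% of all genes, and 0 higher, beside 9.81%. These p-values rest on the spread between mice.

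Pairing the libraries of each mouse changed the count of members called in DESeq2 and not in edgeR. With mouse as a replicate block, edgeR called 0 members, beside 0% of all genes lower and 0.728% higher, and at an unadjusted p under 0.05 it had 7 members lower (8.43%) beside 7.33% of all genes and 0 higher beside 12.3%. DESeq2 with the replicate block called 1 member lower, beside 1.65% of all genes, and 0 members higher, beside 7.57%. At an unadjusted p under 0.05 that fit had 11 members lower (13.3%) beside 8.28% of all genes and 0 higher beside 15.0%.

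The fold changes themselves were of modest size and mostly below 0. Of the 83 members, 81 had a log2 fold change below 0 (97.6%), beside 44.9% of all tested genes, and the median was -0.29 beside 0.06. The median of the members was -0.29 with TMM, -0.27 with DESeq2's size factors and -0.26 on library totals alone. Mouse 57 carried much of it: without that mouse the median was -0.12, with 70 of 83 members below 0, and without its E-cadLO library alone it was -0.14, with 74 of 83 below 0. Without mouse 58 the median was -0.45, and without mouse 70 it was -0.30. Members lower in E-cadLO in 4 of 4 mice numbered 14 (16.9%), beside 14.2% of all tested genes, and 1 member, Rpl24, was higher in 4 of 4 mice, beside 16.8%. The E-cadLO libraries lay below all E-cadHI libraries for 6 members (7.23%), among them Rpl3, Rpl4, Rpl5, Rpl7 and Rpl7a, beside 4.2% of all tested genes, and above all of them for 0 members, beside 3.9%. Rpl7a falls outside the rule for named genes and is named for this count. Counts near the share over all genes say nothing particular about the members.

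Among the 31 small subunit genes, all had a log2 fold change below 0, from -0.66 for Rps12 to -0.10 for Rpsa, with a median of -0.31. Rps12 (ENSMUSG00000061983, chromosome 10, 23785211 to 23787195 on GRCm38), known in flies for a role in cell competition, was at 46.1, 83.6, 41.5 and 118 CPM in E-cadHI and at 25.3, 64.2, 44 and 49 CPM in E-cadLO. E-cadLO was lower in mice 57, 58 and 70 and slightly higher in mouse 67, and the groups overlapped (log2 fold change -0.66, SE 0.38, edgeR adjusted p = 0.437). Its place as the lowest member rests on the E-cadHI library of mouse 70, without which the log2 fold change was -0.33 and the median of the members -0.26.

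Rps25 (ENSMUSG00000009927, chromosome 9, 44407139 to 44410427), which some viral internal ribosome entry sites need, was at 185, 205, 203 and 209 CPM in E-cadHI and at 81, 127, 165 and 189 CPM in E-cadLO. It was lower in E-cadLO in 4 of 4 mice, including mouse 58, where its ratio of -0.69 was the lowest of all tested members (log2 fold change -0.51, SE 0.24, edgeR adjusted p = 0.372). Rps14, among the 3 members with the highest mean share of counts, was at 881, 629.8, 904 and 899 CPM in E-cadHI and at 382, 707, 708 and 730.3 CPM in E-cadLO. Its E-cadHI library of mouse 58 was low for its group, and the E-cadLO library of mouse 57 was lower still.

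Small subunit genes with well-known further roles had overlapping groups. Rps6, the target of the S6 kinases downstream of mTORC1, was at 303, 264, 285 and 312 CPM in E-cadHI and at 164, 285, 223 and 261 CPM in E-cadLO. Rps3, which lies where the mRNA enters the ribosome, was at 689, 638, 632 and 688 CPM in E-cadHI and at 331, 714, 514 and 607 CPM in E-cadLO. Rpsa, also described as a laminin receptor, was at 207, 229, 179 and 243 CPM in E-cadHI and at 130.2, 288, 189.6 and 192 CPM in E-cadLO. In each of the 3 the E-cadLO library of mouse 57 was the lowest of the 8. Their log2 fold changes were -0.32, -0.29 and -0.10, and the value for Rpsa turned to 0.02 without mouse 57.

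Among the 43 large subunit genes, 42 had a log2 fold change below 0, and the median was -0.29. Rpl7 (ENSMUSG00000043716, chromosome 1, 16101295 to 16104662) was at 452, 442, 443 and 532 CPM in E-cadHI and at 199, 416, 316 and 354 CPM in E-cadLO. The groups did not overlap, and the lowest value was in mouse 57 (log2 fold change -0.54, SE 0.22, edgeR adjusted p = 0.337). Rpl4 (ENSMUSG00000032399, chromosome 9, 64173375 to 64178666), which lines the tunnel through which the new protein leaves, had the highest mean share of counts of all members. It was at 1756, 1603, 1717 and 1668 CPM in E-cadHI and at 884, 1559, 1503 and 1502 CPM in E-cadLO. The groups did not overlap, and the library of mouse 57 was far below the other E-cadLO libraries (log2 fold change -0.31, SE 0.21, edgeR adjusted p = 0.498).

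Rpl5 and Rpl11, which with 5S ribosomal RNA can bind Mdm2 and so connect ribosome assembly to p53, differed in mouse 58. Rpl5 was at 368, 388, 369 and 467 CPM in E-cadHI and at 241, 363, 316 and 317 CPM in E-cadLO, with no overlap between the groups. Rpl11 was at 184, 169.7, 176 and 184 CPM in E-cadHI and at 85.1, 203, 134 and 161 CPM in E-cadLO, with the highest of its 8 values in the E-cadLO library of mouse 58. Rpl10, a protein added late in assembly of the large subunit, was at 459, 394, 379.7 and 387 CPM in E-cadHI and at 158, 455, 269.8 and 306 CPM in E-cadLO. Its ratio in mouse 57, -1.54, was among the lowest there, and its groups overlapped through mouse 58. Rpl13a, also known for a role in translational silencing after interferon, was at 504, 439, 457 and 593 CPM in E-cadHI and at 266, 481, 354 and 434 CPM in E-cadLO. The log2 fold changes of Rpl5, Rpl11, Rpl10 and Rpl13a were -0.36, -0.29, -0.45 and -0.38, and none passed the test.

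The stalk, which recruits translation factors to the large subunit, is made of the products of Rplp0, Rplp1 and Rplp2. Rplp0 was at 1460.5, 1098, 1249.9 and 1247 CPM in E-cadHI and at 705, 1286, 1052 and 1042 CPM in E-cadLO. Rplp1 was at 195, 162, 173 and 206 CPM in E-cadHI and at 91.7, 245, 138 and 166 CPM in E-cadLO. Rplp2 was at 136, 118, 134 and 152 CPM in E-cadHI and at 72.9, 144, 103 and 128 CPM in E-cadLO. All 3 were lower in E-cadLO in mice 57, 67 and 70 and higher in mouse 58, and in each the groups overlapped. The log2 fold changes were -0.31, -0.20 and -0.27, and that of Rplp1 was 0.00 without mouse 57.

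Rpl38 (ENSMUSG00000057322, chromosome 11, 114668524 to 114672331), a large subunit gene needed for normal patterning of the mouse skeleton, served the study as a reference gene in RT-qPCR. It was at 113, 98.4, 122 and 131 CPM in E-cadHI (mean 116 ± 13.8, SD, n = 4) and at 53.6, 121, 90.9 and 122 CPM in E-cadLO (mean 96.9 ± 32.4, SD, n = 4). In mice 57 and 67 the E-cadLO library was lower, in mouse 58 it was higher, and in mouse 70 the pair differed little, with ratios of -1.07, 0.30, -0.42 and -0.10. The log2 fold change was -0.26 (SE 0.25, edgeR adjusted p = 0.62), and its 95% interval, -0.83 to 0.31, does not show an equal level in both populations. The log2 fold change was -0.09 without mouse 57, -0.08 without the E-cadLO library of that mouse alone and -0.45 without mouse 58. The measurements made with this assay were not used here. Its primers are shown because they define what that assay can detect, with capitals at bases that differ from the Rpl38 transcript of GENCODE M21 when the primer is placed without gaps.
RPL38_F: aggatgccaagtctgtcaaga
RPL38_R: tccttgtctgtgataaccaAggG
RPL38_F, of 21 bases, matched transcripts of 6 genes exactly, which are Rpl38 and 5 processed pseudogenes. RPL38_R, of 23 bases, matched no annotated transcript exactly and differed from Rpl38 by A20G and G23T, counted from 1 at the primer's 5′ end, with the primer's base first. When the a at position 19 or 20 was left out, the remaining 22 bases matched Rpl38 exactly. The reference is from C57BL/6J, and FVB sequence was not used here.

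The 9 paralogues carry the symbol of a core ribosomal protein gene with letters, or letters and a digit, added. Of these, 4 were not tested for low counts: Rpl3l, Rpl6l, Rpl10l and Rpl39l had between 0 and 10 counts in each library. GENCODE M21 lists Rpl6l as a processed pseudogene. Rpl22l1, the paralogue of Rpl22, was at 52.2, 50.7, 68 and 66.7 CPM in E-cadHI and at 40.3, 74.3, 62.5 and 66.7 CPM in E-cadLO, while Rpl22 was at 92.9, 85.2, 84.7 and 94 CPM in E-cadHI and at 56.8, 114, 69.1 and 74.6 CPM in E-cadLO. The ratio of Rpl22l1 to Rpl22 counts was 0.562, 0.595, 0.803 and 0.71 in E-cadHI and 0.711, 0.652, 0.905 and 0.893 in E-cadLO. It was higher in E-cadLO in 4 of 4 mice, although the groups overlapped, and it was not tested. The ratio of Rpl7l1 to Rpl7 was 0.509, 0.387, 0.547 and 0.392 in E-cadHI and 0.864, 0.357, 0.596 and 0.595 in E-cadLO, higher in 3 of 4 mice. The ratio of Rps27l, a p53 target, to Rps27 was 1.9, 1.94, 1.69 and 1.94 in E-cadHI and 2.13, 1.36, 1.59 and 1.5 in E-cadLO, and that of Rpl36al to Rpl36a was 0.923, 0.934, 0.881 and 0.935 in E-cadHI and 1.26, 0.701, 1.06 and 0.916 in E-cadLO. These were higher in E-cadLO in 1 and 2 of 4 mice. The genes of each pair differed in how much of their sequence, in windows as long as a read, was in no other annotated gene. This share was 1.42% for Rps27 and 83.7% for Rps27l, and 15.0% for Rpl36a and 37.9% for Rpl36al. It was 86.1% for Rpl22 and 38.5% for Rpl22l1, and 53.9% for Rpl7 and 94.1% for Rpl7l1. The size of these ratios can therefore not be read as relative mRNA abundance. The part of these shares in the ratios was not tested.

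The 5 members with the highest log2 fold change were Rpl24 (0.81), Rpl22l1 (0.04), Rps27rt (-0.03), Rpl10a (-0.05) and Rpsa (-0.10). Rpl24, a core large subunit gene, was counted at 0.836, 0.922, 0.372 and 0.527 CPM in E-cadHI and at 1.26, 1.4, 1.14 and 0.909 CPM in E-cadLO. These values rest on 5 to 17 counts per library, against a floor of 3 counts, and E-cadLO was higher in each mouse with overlapping groups (SE 0.52, edgeR adjusted p = 0.475). Rps27rt, an intronless copy of Rps27, was at 4.67, 5.53, 4.68 and 5.18 CPM in E-cadHI and at 2.97, 6.86, 5.45 and 4.33 CPM in E-cadLO. Rpl10a was at 124, 107, 119 and 116 CPM in E-cadHI and at 88.3, 160.2, 105 and 98.4 CPM in E-cadLO. Rps27rt had a log2 fold change of 0.09 without mouse 57 and 0.04 without mouse 70, and Rpl10a of 0.07 and 0.02. Rpl22l1 was at -0.13 without mouse 58, so none of these 3 had a direction that held without each mouse.

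Ribosomal protein genes have many near-identical copies in the genome, which makes their counts uncertain. Of the 77 core genes, 46 had fewer than 50% of their 65-base windows, the length of the reads, in no other annotated gene, and the median was 44.8%. The share was 1.42% for Rps27, 6.97% for Rpl5, 8.03% for Rpl10, 10.2% for Rps12, 15.8% for Rpl3 and 18.8% for Rpl24, whose levels are therefore uncertain. The same limit holds for other genes described above, among them Rpl10a (12.2%), Rps6 (15.7%), Rpl11 (38.5%), Rpl13a (43.2%) and Rpl38 (47.0%). The share was 53.9% for Rpl7, 67.3% for Rplp0, 89.1% for Rpl4 and 99.4% for Rps3. Among the core genes with over 50% of windows unique, a set chosen after seeing the data, the median log2 fold change was -0.28. Per kilobase of transcript, the mean level in E-cadHI ranged from 0.981 CPM per kb for Rpl24 to 1387 CPM per kb for Rps14, with a median of 309 CPM per kb. Across the 77 core genes, Spearman's rho between the share of unique windows and the level was 0.11 per kilobase of transcript and 0.36 per kilobase of coding sequence. Genes are not independent replicates, and these values are descriptions. The 204 pseudogenes with -ps symbols took between 0.0048% and 0.00834% of the counts of a library, and the 20 of them that were tested had a median log2 fold change of -0.26, with 14 below 0.

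Other genes of translation were compared with the ribosomal proteins, and edgeR called 0 genes of each list. The list of 9 translation elongation genes, which holds elongation factors, Eef2k, a kinase that inhibits one of them, and Eef1e1, a part of the tRNA synthetase complex, had a median log2 fold change of -0.34, with 8 below 0. Their median ratio was -0.73, 0.00, -0.34 and -0.28 in mice 57, 58, 67 and 70. Eef1d, an exchange factor for elongation factor 1, was at 308, 264, 294 and 295 CPM in E-cadHI and at 146, 230.3, 201 and 254 CPM in E-cadLO, with no overlap. The 20 other genes with TOP mRNAs, which include some elongation factors, had a median of -0.30 with 18 below 0. Rack1, a scaffold protein on the small subunit, was at 729, 779, 682 and 957 CPM in E-cadHI and at 368, 649.6, 524 and 605 CPM in E-cadLO. Its groups did not overlap either. Fau, whose product is a ribosomal protein made as a fusion with a ubiquitin-like protein, had a log2 fold change of -0.26.

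The genes that start translation, build ribosomes or control both were nearer to the median of all genes, 0.06. The 39 initiation factor genes had a median of -0.16, the 82 ribosome biogenesis genes a median of -0.04, and the 21 tested of 24 genes of mTORC1 and Myc control a median of 0.07. In mouse 57 their median ratios were -0.33, -0.10 and 0.25, beside -1.0 for the ribosomal protein genes. Myc was the most abundant gene of the last list, at 237, 185, 264 and 176 CPM in E-cadHI and at 275, 253, 347 and 210 CPM in E-cadLO. It was higher in E-cadLO in each mouse, with overlapping groups. Differences between the lists were not tested.

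The lower values of mouse 57 were not limited to the cytosolic ribosome. The 76 tested mitochondrial ribosomal protein genes, encoded in the nucleus, had a median log2 fold change of -0.32, with 70 below 0, and median ratios of -0.70, -0.10, -0.30 and -0.14. The 73 tested nuclear genes of the respiratory chain had a median of -0.29, with 69 below 0, and median ratios of -1.06, -0.06, -0.37 and -0.01. With mouse as a replicate block, edgeR called 1 of them higher, Cox6a2 (log2 fold change 3.71, adjusted p = 0.027), and 0 lower. In mouse 58, where the cytosolic ribosomal protein genes had a median ratio of 0.20, both lists were below 0.

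**Figure D3:**
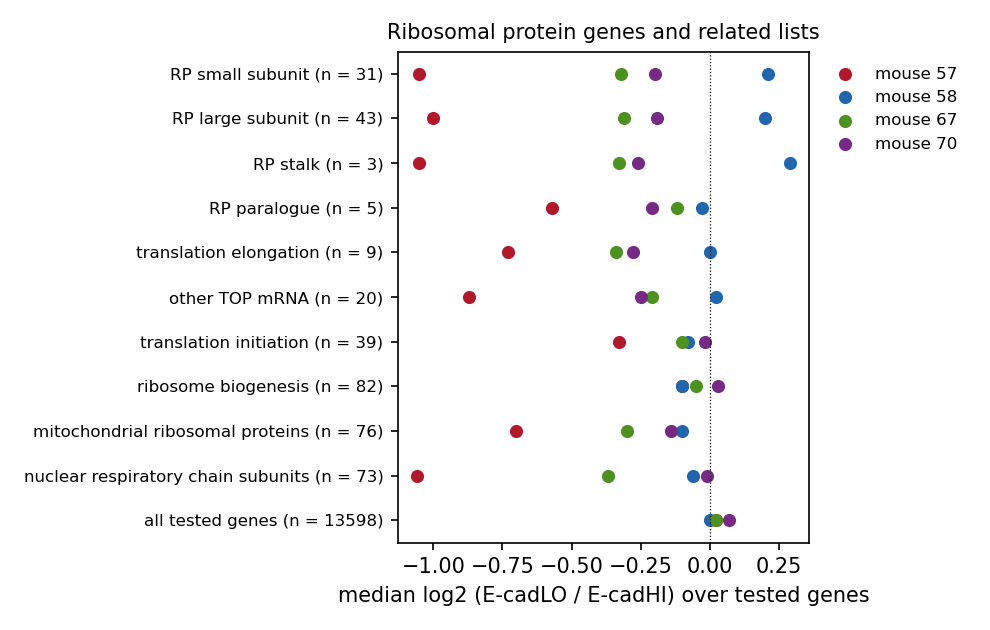
Median log2 ratio of E-cadLO to E-cadHI in each mouse for ribosomal protein genes by role, for other gene lists of translation and mitochondria and for all tested genes, with 1 point per mouse and the number of tested genes beside each name. The points of mouse 57 lie near -1.0 for the small subunit, large subunit, stalk and respiratory chain lists, and at -0.10 for ribosome biogenesis, where the point of mouse 58 covers it.

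The start of several members is shown because a pyrimidine run there is the feature through which TOP mRNAs are recognized. Windows run from 10 bases before to 20 bases from an annotated start, on the gene's strand, from RefSeq (GRCm38.p6), and capitals mark the longest run of C and T. RefSeq promoters were found for 66 of the 87 members (75.9%), under the 80% needed for a check over the whole set, which is void for that reason.
Rps12: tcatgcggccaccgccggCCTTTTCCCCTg
Rps25: ccgacaTCTTagcgaggctgctgtggtcta
Rplp0: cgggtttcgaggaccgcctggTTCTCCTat
Rpl4: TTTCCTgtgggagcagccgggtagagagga
Rpl22l1: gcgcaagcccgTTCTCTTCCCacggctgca
Rpl24: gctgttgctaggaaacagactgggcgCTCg
Rps12 (chr10:23787190-23787219, minus strand) had a run of 11 bases, and 2.99% of the 32851 promoter windows had a run at least as long. Rpl22l1 (chr3:28805498-28805527, plus strand) had a run of 10 bases (4.77%), Rplp0 (chr5:115559457-115559486, plus) of 7 (17.9%) and Rpl4 (chr9:64173377-64173406, plus) of 6 (28.7%). Rps25 (chr9:44407704-44407733, plus) had a run of 4 bases (68.6%), which is the median of all windows, and Rpl24 (chr16:55966265-55966294, plus) of 3 (88.3%). Rpl7 had no entry. The marked runs of Rpl4 and Rps25 lie wholly in the 10 bases before the annotated start, so by that annotation they are outside the mRNA. The marked runs of Rps12, Rplp0 and Rpl24 begin farther inside the mRNA, and that of Rpl22l1 begins just after the annotated start. None of the marked runs shown begins at the annotated first base, where a TOP motif would lie. A run is a description of these letters and not evidence of a working motif.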

How the data were processed

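The authors sequenced mRNA as single reads of 65 bases, mapped them to GRCm38 with HISAT2 2.1.0 and deposited raw counts per gene for 8 libraries; the submitters' notes name HTSeq for counting and the methods Icount, and how reads matching several genes were treated is not stated. Genes without an identifier (365 of 32259 entries) were left out. Total counts were 9102781 to 15769200, and shares have 95% Wilson intervals. edgeR 4.0.16 in R 4.3.3 (TMM, filterByExpr by group, quasi-likelihood test) tested E-cadLO against E-cadHI over 13598 genes with Benjamini-Hochberg adjustment and a threshold of 0.05. DESeq2 1.42.0 was the other tool. Ratios within a mouse used CPM plus 0.5, and interval widths came from log2 fold change and F. Transcripts of GENCODE M21 gave lengths and windows. Tables were made with Python 3.11.15, pandas 2.3.3, numpy 2.4.6 and scipy 1.17.1, and figures with matplotlib 3.10.9. The steps were tested on simulated data, where a larger share of the calls was false with DESeq2 than with edgeR; DESeq2 with the replicate block was not tested there.

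Pairing follows the mouse numbers of the labels: same-mouse libraries, after centering on their group, correlated at 0.394, 0.228, 0.232 and 0.681, the highest value for each mouse's E-cadLO library. The replicate block, other scalings and filters, and leaving out each mouse and library were the alternatives. The members and gene lists were chosen with earlier results of these data known. The named genes are Rpl38, genes chosen by role, paralogue pairs, the 5 lowest and 5 highest log2 fold changes, the 3 with the highest mean share, and at most 3 of each other list. Other genes are said to fall outside that rule.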

Additional observations from a re-analysis of the deposited data

Results flagged for a closer look

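Of 92 groups of 4 libraries checked, 17 had a highest or lowest library that lay far from the other 3 by Dixon's ratio. For independent, normally distributed groups chance gives about 1 in 20. The groups checked share the same libraries and are not independent, so 17 of 92 cannot be set directly against that rate. Among the ribosomal protein genes, the E-cadHI library of mouse 70 was high for Rpl7 (532 CPM, others 442 to 452), and the E-cadHI library of mouse 58 was low for Rpl36a (85 CPM, others 99.8 to 101), Rps27 (204 CPM, others 271 to 279) and Rps14 (629.8 CPM, others 881 to 904). The E-cadLO library of mouse 57 was low for Rps27 (132 CPM, others 267 to 284), Rpl4 (884 CPM, others 1502 to 1559) and Rps14 (382 CPM, others 707 to 730.3).

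The share of Gm42418 in the E-cadLO library of mouse 58 was 14.4%, against 2.35% to 3.93% in the others. Summed fibroblast and mural markers were 1667 CPM in the E-cadLO library of mouse 57 (others 24 to 185) and 66.2 CPM in the E-cadHI library of mouse 70 (others 8.71 to 15.8). In mouse 70, summed astrocyte markers were 3775 CPM in E-cadHI (others 1204 to 1376) and 10411 CPM in E-cadLO (others 771 to 2081), and oligodendrocyte markers were 8662 CPM (others 555 to 1654) and 34699 CPM (others 1334 to 4337). Erythroid markers in mouse 70 were 386 CPM in E-cadHI (others 24.7 to 53.8) and 753 CPM in E-cadLO (others 169 to 235), and lymphocyte markers in its E-cadLO library were 21.3 CPM (others 0.446 to 3.23). The causes were not tested.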

How the results depend on the processing

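The median log2 fold change of the ribosomal protein genes was below 0 under every alternative run, from -0.45 to -0.12 when a mouse or library was left out and from -0.49 to -0.13 with the replicate block and a mouse left out. The share difference was below 0 under every alternative, from -0.570 to -0.203 percentage points. The -0.203 is for the core genes with over 50% of windows unique, a smaller set chosen after seeing the data. With the other alternatives the upper end was -0.239, without mouse 57. The within-mouse medians kept their signs, with -0.70 for mouse 57 and 0.12 for mouse 58 on library totals. The count of all genes called was 0 in edgeR, 359 in DESeq2, 23 without a filter, 3 with at least 10 counts in every library, 99 with the replicate block and 1255 in DESeq2 with the replicate block. It was 0 to 13 when a mouse or library was left out, with the 13 without the E-cadLO library of mouse 70. With the replicate block it was 449 without mouse 57, 66 without mouse 58, 0 without mouse 67 and 2 without mouse 70, alternatives chosen after seeing the data. The causes were not tested. Ribosomal protein genes called lower numbered 1 in DESeq2 with the replicate block, and 0 in the other alternatives; the replicate block in edgeR changed no call among them.

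Of 712 values of named members under alternatives, 687 kept direction and side of the threshold, 1 passed it and 24 changed sign, all in 6 genes near 0. Leaving out mice or libraries gave -0.32 to 0.03 for Rpsa, -0.53 to 0.00 for Rplp1, -0.13 to 0.17 for Rpl22l1, -0.29 to 0.11 for Rps27, -0.29 to 0.07 for Rpl10a and -0.23 to 0.12 for Rps27rt. With the replicate block as well, Rpl22l1 was -0.15 without mouse 58, and Rps27, Rpl10a and Rps27rt were 0.12, 0.03 and 0.07 without mouse 57. Rps27rt was 0.00 with at least 10 counts in every library. The causes were not tested. Counts of 5 to 17 per library limit what can be said of Rpl24.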

Other observations

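Other cell type lists also differed between the libraries. The 12 neuron markers, of which 11 were tested and Camk2a was the most abundant, summed to 12.3, 372, 68.7 and 255 CPM in the E-cadHI libraries of mice 57, 58, 67 and 70 and to 76.5, 947, 442 and 976 CPM in their E-cadLO libraries, higher in E-cadLO in each mouse. The 12 endothelial markers, led by Flt1, summed to 42, 43.5, 78.3 and 75.2 CPM in E-cadHI and to 63.5, 77.9, 101 and 114 CPM in E-cadLO. The neutrophil list was nearly all Ltf, which mammary epithelium also expresses, at 19343, 12825, 17150.4 and 15524 CPM in E-cadHI and at 2625, 12592, 7471 and 7024 CPM in E-cadLO. In edgeR 0 genes of these lists were called, and with mouse as a replicate block 5 microglia and macrophage, 3 astrocyte, 2 oligodendrocyte, 2 neuron and 1 erythroid marker passed, all higher in E-cadLO.

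The Rps6k kinases, which share part of their symbols with the ribosomal proteins, did not follow them. The 9 that were tested had a median log2 fold change of 0.14, with 6 above 0, and 0 were called by edgeR. Rps6kl1 was at 29.2, 25.3, 27.4 and 28.4 CPM in E-cadHI and at 91.9, 45.4, 43.6 and 30.2 CPM in E-cadLO. Rps6ka6 was at 40, 60.4, 40.3 and 36.6 CPM in E-cadHI and at 22.5, 24.3, 32.2 and 32.1 CPM in E-cadLO. The groups did not overlap for either gene, and the directions were opposite.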
